A study of Mus musculus with 24 samples.

Results

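The proteasome family genes were taken as every entry of the liver long RNA count table whose symbol begins with Psma, Psmb, Psmc, Psmd, Psme, Psmf or Psmg followed by a digit, which gave 51 of 18314 entries. The samples were livers of wild-type male C57BL/6 mice from a study of a herbal mixture, the Huatanqushihuoxue Formula (HQHF), in fatty liver disease brought on by diet. Control mice ate a normal diet. HFD mice ate a high-fat diet. HFD plus HQHF mice ate the same high-fat diet and, after 12 weeks of it, received HQHF by gavage. The study names low, medium and high doses and 9 mice per group, and the labels of these samples do not say which dose was given. Long RNA of 4 samples per group, given as whole liver tissue, was sequenced as total RNA after removal of ribosomal RNA.

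The proteasome is the protease that degrades proteins tagged with ubiquitin in the cytosol and nucleus. Its barrel-shaped core is built of rings of alpha subunits, which form the gate, and rings of beta subunits, 3 of which carry the active sites, and a regulatory cap on its end binds the tagged protein, removes the tag, unfolds the chain and feeds it in. In immune cells, and in other cells exposed to interferon gamma, Psmb8, Psmb9 and Psmb10 replace the catalytic subunits Psmb5, Psmb6 and Psmb7, which makes the immunoproteasome and alters the peptides offered to T cells. By these roles the 51 genes were 7 alpha ring genes (Psma1 to Psma7), 7 constitutive beta ring genes (Psmb1 to Psmb7), the 3 immunoproteasome genes, 2 core genes restricted to other tissues (Psma8 of testis and Psmb11 of thymus), 6 ATPases of the cap base (Psmc1 to Psmc6), 3 other cap base genes (Psmd1, Psmd2, Psmd4), 8 cap lid genes (Psmd3, Psmd6, Psmd7, Psmd8, Psmd11, Psmd12, Psmd13, Psmd14), 7 assembly chaperones (Psmd5, Psmd9, Psmd10 and Psmg1 to Psmg4), 5 genes of other activators (Psme1, Psme2, Psme2b, Psme3, Psme4) and the inhibitor Psmf1. The remaining 2, Psmc3ip and Psme3ip1, carry the family prefix but encode partner proteins and not subunits.

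The 12 libraries held 33380925 to 46454404 counts. Control 2 and HFD plus HQHF 3 stood apart before any comparison. The summed share of 8 hepatocyte markers (Alb, Apoa1, Ttr, Serpina1c, Cps1, Hnf4a, Cyp2e1, Tat) was 0.851% in the first and 0.0398% in the second, while it ranged from 5.78 to 12.7% among the 10 remaining livers. That of 6 adipocyte markers was 1.30% and 0.782%, and at most 0.0171% among those 10. By these markers both libraries resembled fat more than liver, so the fits with all 12 libraries mix fat-like libraries with livers. The results below rest on the other 10 libraries (3 control, 4 HFD, 3 HFD plus HQHF), and those with all 12 are given beside them. Among the 10, HFD 3 held that 0.0171% of adipocyte markers, and control 1 held 0.167% for 6 pancreatic acinar markers against at most 0.00219% elsewhere. Of the 51 genes 50 passed the filter on low counts, and Psmb11, with 0 to 2 reads in each of the 10 libraries, was not tested. Levels are CPM values, a gene's reads relative to the size of its library, scaled by TMM, which sets libraries to a common level for most genes. The TMM factors were 0.763 to 0.892 in control, 1.2 to 1.42 in HFD and 0.823 to 0.939 in HFD plus HQHF livers, so the scaling bears on every diet comparison. Replacing it by plain library totals moved the all-gene median in HFD against control from 0.06 to 0.66 on the log2 scale, a shift of 0.599, and in HFD plus HQHF against HFD from -0.07 to -0.62.

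In the livers of HFD mice the genes of the proteasome core and cap lay below those of control mice relative to most other genes. With TMM scaling 28 of the 50 tested family genes fell and 0 rose in HFD against control (edgeR's quasi-likelihood test, Benjamini-Hochberg adjusted p under 0.05 over 13832 genes), with a median log2 fold change of -0.54, whereas with library totals 0 fell, 6 rose and the median was 0.07. Over all genes tested 26.2% were called with TMM, 16.3% higher and 9.89% lower, so the share of the family that fell stands beside a background of 9.89%. With library totals 52% were called, 50.9% higher and 1.11% lower. Of the called genes 62.3% were higher with TMM and 97.9% with library totals. Of the 50 members 43 lay below the median of all genes with TMM and 42 with library totals. A change of scaling moves all genes by about the same amount, so these counts are nearly fixed by construction and are no check of the result. The family's share of all counts was 0.285 to 0.327% in control, 0.268 to 0.411% in HFD and 0.277 to 0.317% in HFD plus HQHF livers, so the groups overlapped in that share, and HFD 3 alone held the upper end. In bulk liver RNA fewer cells of a type and less RNA per cell cannot be told apart.

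The count of genes that fell depended on single mice. It was 10 without control 1, 16 without HFD 4 and 17 without control 4, and 31 without HFD 3. With all 12 libraries it was 0, with a family median of -0.35 against -0.09 over all genes and 7 genes called of 13929, or 0.0503%. HFD 3 was the highest of the 4 HFD livers for 34 of the 50 members and HFD 4 the lowest for 30. Between the groups, 28 members had every HFD value below every control value and 2 had every one above, beside 15.9% and 20.8% of all genes. The 31 constitutive core and cap genes made up most of the change: 26 of them fell with TMM (median -0.63) and 0 with library totals (median -0.01), where 1 rose.

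**Figure D1:**
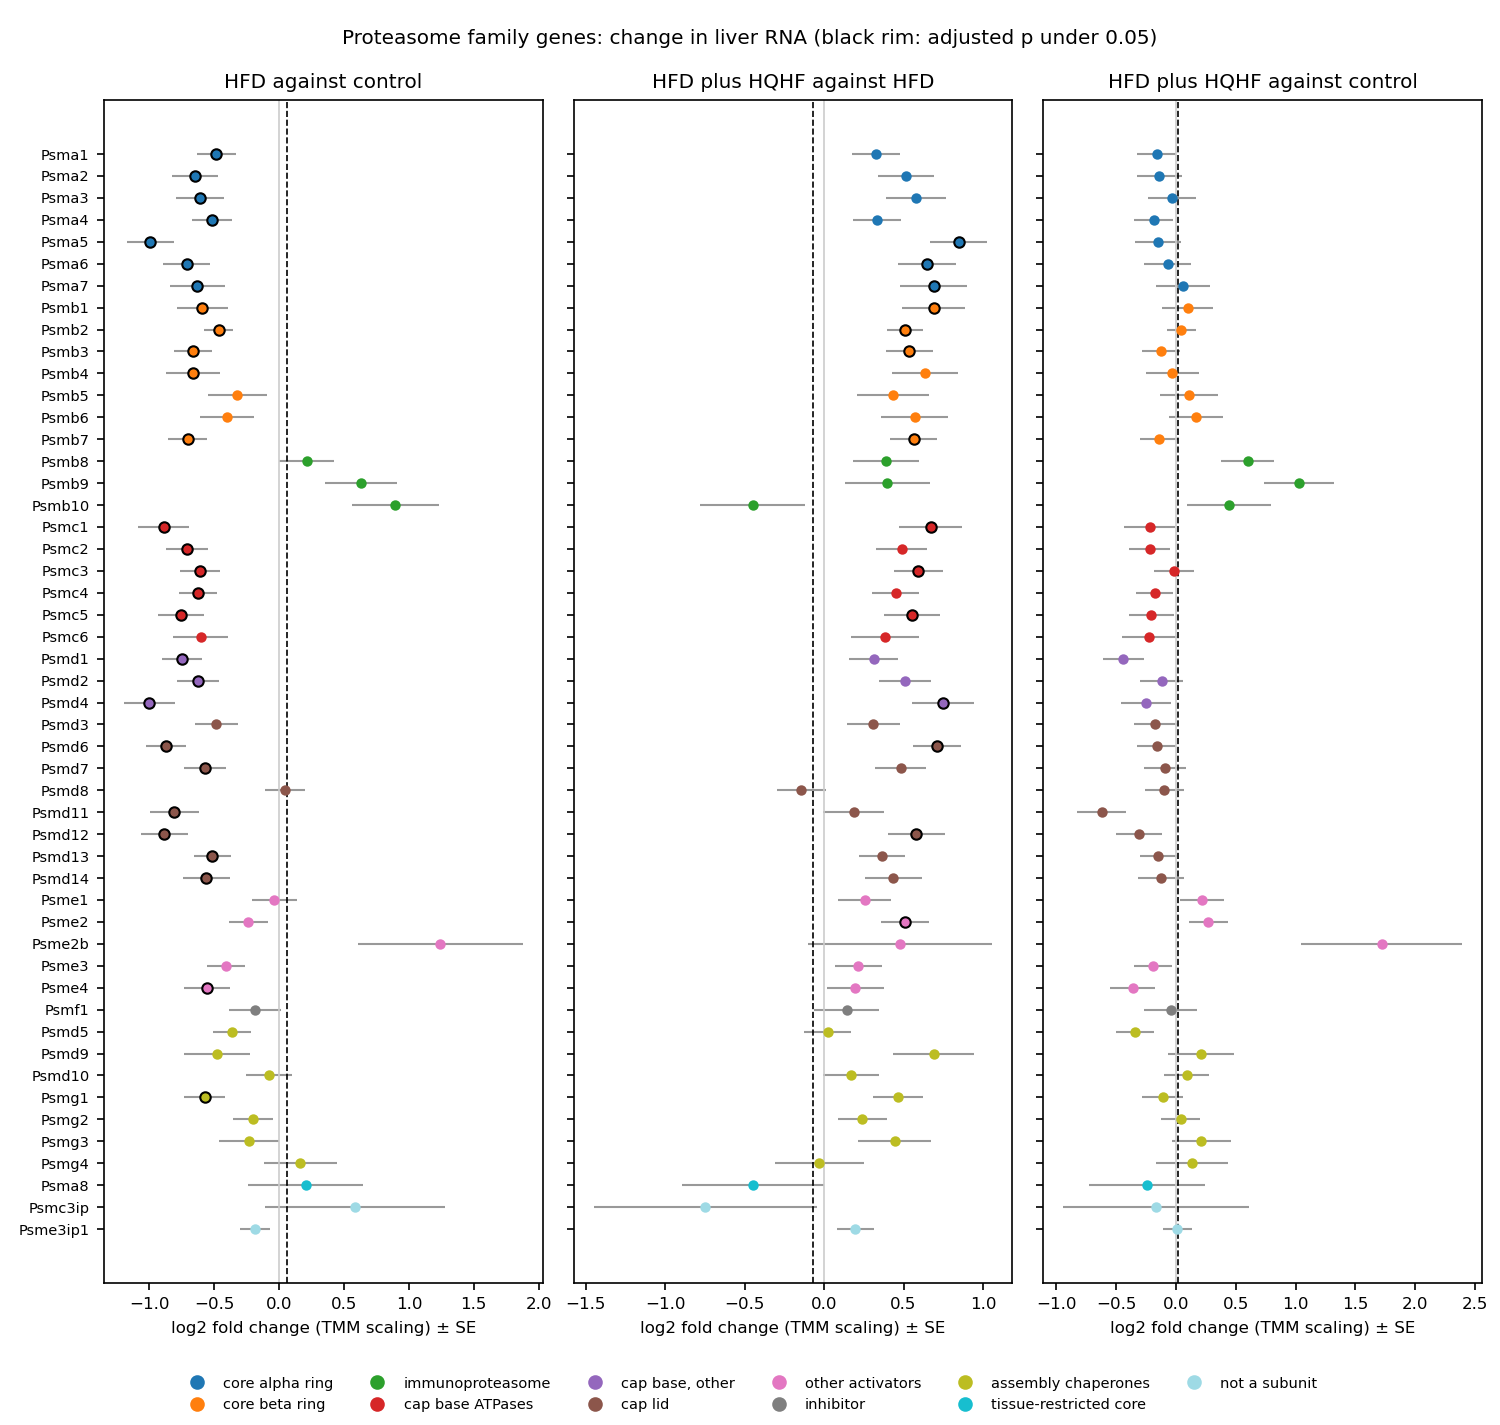
Log2 fold change ± SE of the 50 tested proteasome family genes in each comparison (x axis, TMM scaling), one row per gene, coloured by role, with a black rim where the adjusted p was under 0.05 and a dashed line at the median of all genes. With TMM scaling 28 genes were called lower in HFD against control and 14 higher in HFD plus HQHF against HFD; with library totals these counts were 0 and 0.

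The alpha ring forms the gate of the core. All 7 alpha genes fell with TMM scaling, by 0.48 (Psma1) to 0.99 (Psma5) on the log2 scale with a median of -0.63, while with library totals the median was -0.005 and 0 of 7 were called. Psma5 (ENSMUSG00000068749) had 93.5, 64.3 and 80.9 CPM in control 1, 3 and 4, and 36.7, 37.7, 51.8 and 33.6 CPM in HFD 1 to 4. The HFD values all lay below the lowest control liver, and the fall was -0.99 ± 0.18 (SE, adjusted p = 0.00578). Psma6 had 135, 108 and 121 CPM in control and 71.2, 62.6, 97.2 and 65.3 CPM in HFD livers. Its groups did not overlap either, with HFD 3 nearest to the controls (-0.71 ± 0.18, adjusted p = 0.019), and the call was lost without control 1 or control 4 (adjusted p up to 0.072).

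In the beta ring 5 of the 7 constitutive genes fell with TMM scaling (median of the class -0.59) and 0 of 7 with library totals (0.04). Psmb3, a structural beta subunit, had 86.9, 80.8 and 91.8 CPM in control and 51.0, 57.4, 64.6 and 45.4 CPM in HFD livers, without overlap (-0.66 ± 0.15, adjusted p = 0.0117). Psmb2, another structural subunit, had little scatter within the groups, with 49.9, 52.1 and 53.9 CPM against 37.7, 35.8, 40.2 and 36.8 CPM (-0.47 ± 0.11, adjusted p = 0.0152). The 2 genes of the ring that did not pass the test, Psmb5 and Psmb6, both encode catalytic subunits. Psmb5, which gives the chymotrypsin-like activity, had 65.3, 56.7 and 90.1 CPM in control and 55.4, 49.8, 80.0 and 41.1 CPM in HFD livers (-0.32 ± 0.23, adjusted p = 0.314). Psmb6, which gives the caspase-like activity, had 72.5, 92.8 and 136 CPM against 71.2, 75.6, 91.9 and 65.5 CPM (-0.40 ± 0.21, adjusted p = 0.177). For both the groups overlapped and control livers differed widely among themselves. Psmb7, which gives the trypsin-like activity, had 119, 108.5 and 112 CPM in control and 67.6, 64.2, 85.3 and 60.2 CPM in HFD livers, well apart (-0.71 ± 0.15, adjusted p = 0.00913). Whether the change differed between Psmb7 and the other catalytic genes was not tested.

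In the cap 14 of 17 genes fell with TMM scaling (median -0.63), while with library totals 0 of 17 fell and Psmd8 rose (median -0.02). Among the ATPases, which unfold the substrate, 5 of 6 fell, and Psmc6 did not pass (-0.60 ± 0.21, adjusted p = 0.0571). Psmc1 had 149, 112 and 108 CPM in control and 66.0, 52.9, 90.7 and 56.4 CPM in HFD livers (-0.89 ± 0.20, adjusted p = 0.0112). Psmc2 had 108, 84.8 and 84.6 CPM against 59.6, 54.4, 67.9 and 44.5 CPM (-0.71 ± 0.16, adjusted p = 0.0123). Neither gene's groups overlapped, and both calls were lost without control 1, the highest control for each (adjusted p = 0.0507 for Psmc1 and 0.0545 for Psmc2). All 3 other base genes fell. Psmd4, the receptor that binds ubiquitin chains, had 174, 133 and 175 CPM in control and 73.6, 67.3, 108 and 72.5 CPM in HFD livers, which at -1.0 ± 0.20 was the lowest log2 fold change of the family (adjusted p = 0.00724). Psmd1, a large scaffold subunit, had 180, 160 and 155 CPM against 95.9, 91.5, 118 and 87.3 CPM (-0.75 ± 0.16, adjusted p = 0.00889).

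In the lid, which holds the deubiquitinase Psmd14, 6 of 8 genes fell with TMM scaling (median -0.57), against 0 of 8 with library totals (median 0.05). Psmd6, a lid scaffold subunit, had 72.4, 61.9 and 62.3 CPM in control and 34.3, 32.1, 46.1 and 30.8 CPM in HFD livers, with -0.87 ± 0.15 and the smallest adjusted p of the family (0.00507). Psmd12, another lid scaffold subunit, had 93.0, 81.0 and 82.7 CPM against 45.4, 38.6, 62.9 and 38.5 CPM (-0.89 ± 0.18, adjusted p = 0.0081). Psmd3 just missed the threshold (-0.48 ± 0.17, adjusted p = 0.052). Psmd8 is named here after its values were seen, because it was the 1 lid gene at the level of all genes: 124.5, 109.7 and 125 CPM in control and 104, 114.5, 147 and 130.3 CPM in HFD livers (0.05 ± 0.15, adjusted p = 0.844), with library totals 0.66 and past the test. Per 100 reads of the other 7 lid genes, a measure that needs no scaling, Psmd8 had 19.9, 18.7 and 19.9 reads in control livers, 27.6, 29.9, 33.9 and 38.9 in HFD livers and 24.5, 24.4 and 18.6 in HFD plus HQHF livers. Every HFD liver was above every other liver of the 10 in this ratio, which was picked after the values were seen and was not tested. The excluded libraries control 2 and HFD plus HQHF 3 had 32.4 and 35.8.

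Of the 13 core, cap, activator and chaperone genes described with their values that fell, 8 passed the test with each of the 10 libraries left out in turn, namely Psma5, Psmb2, Psmb3, Psmb7, Psmd1, Psmd4, Psmd6 and Psmd12. Hepatocyte markers were read beside the core and cap. Of 8 markers 3 were called lower in HFD with TMM scaling and 1 with library totals, beside 9.89% and 1.11% of all genes. Serpina1c and Cyp2e1 were called higher in HFD plus HQHF against HFD under both scalings, beside 7.85% and 0.99% of all genes. None of the 8 was called lower there. The summed share of the 8 markers in library totals was 9.49 to 12.7% in control, 5.78 to 9.66% in HFD and 7.22 to 9.94% in HFD plus HQHF livers. HFD 3 held the lowest share (5.78%, against 9.36, 9.46 and 9.66% in HFD 1, 2 and 4). It was also the highest HFD liver for 34 of the 50 family members. The part of hepatocytes in the lower core and cap values was not tested.

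**Figure D2:**
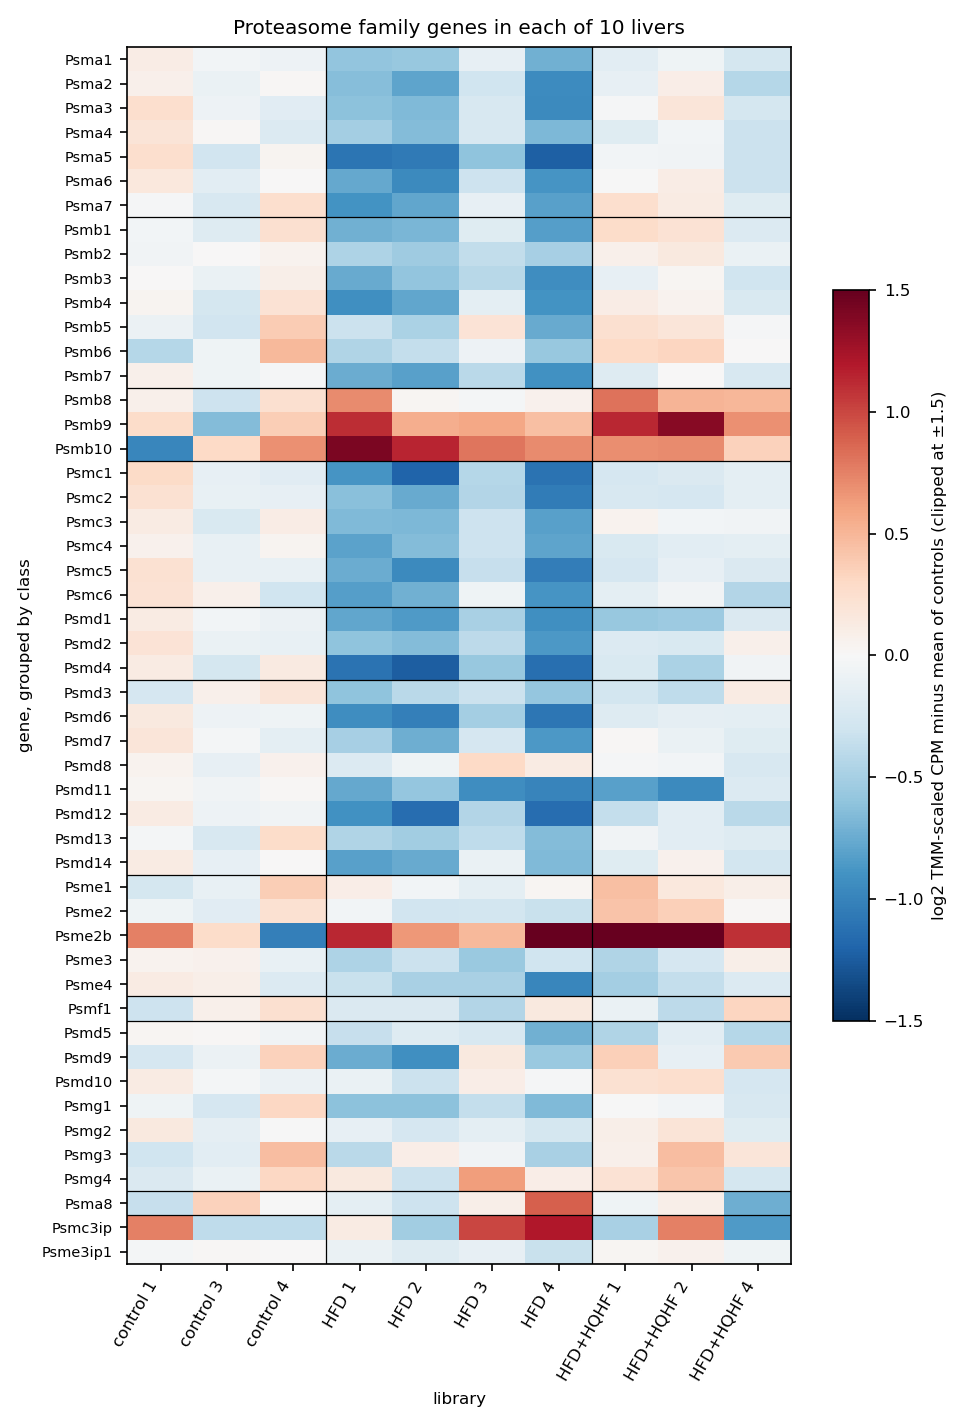
Log2 of TMM-scaled CPM (with 0.05 CPM added) minus the mean of the 3 control livers, for each of the 50 tested family genes (rows, by role) in each of the 10 livers (columns), clipped at ±1.5. With TMM scaling the core and cap rows are lower in the HFD columns, least so in HFD 3, while Psmb8, Psmb9 and Psmb10 are not; with library totals the core and cap rows are near the controls.

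None of the 3 immunoproteasome genes was called lower in HFD livers under either scaling. Over all genes 9.89% were called lower with TMM scaling and 1.11% with library totals, and 16.3% higher with TMM scaling. For 3 genes a count of 0 lies near these shares. With TMM scaling 0 of 3 were called in HFD against control and their log2 fold changes were all above 0, from 0.21 to 0.90, while with library totals all 3 rose, Psmb8 by 0.81, Psmb9 by 1.24 and Psmb10 by 1.51, where 50.9% of all genes were called higher and the median of all genes was 0.66. Psmb8 (ENSMUSG00000024338), the chymotrypsin-like subunit of the immunoproteasome, had 14.1, 10.7 and 15.8 CPM in control and 22.0, 13.6, 13.1 and 14.0 CPM in HFD livers (0.21 ± 0.21, adjusted p = 0.479). Only HFD 1 exceeded the control livers. Psmb9, the counterpart of Psmb6, had 6.20, 3.23 and 6.63 CPM in control and 11.03, 7.46, 7.66 and 6.98 CPM in HFD livers (0.63 ± 0.28, adjusted p = 0.11). Psmb10, the counterpart of Psmb7, had 3.10, 7.56 and 9.93 CPM in control and 16.5, 13.6, 10.8 and 10.1 CPM in HFD livers (0.90 ± 0.33, adjusted p = 0.069), and DESeq2 called it higher. For Psmb9 and Psmb10 every HFD value lay above every control value, with the control livers spread over more than the gap between groups. With all 12 libraries the values were -0.20, 0.39 and 0.40 for Psmb8, Psmb9 and Psmb10, and none was called.

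**Figure D3:**
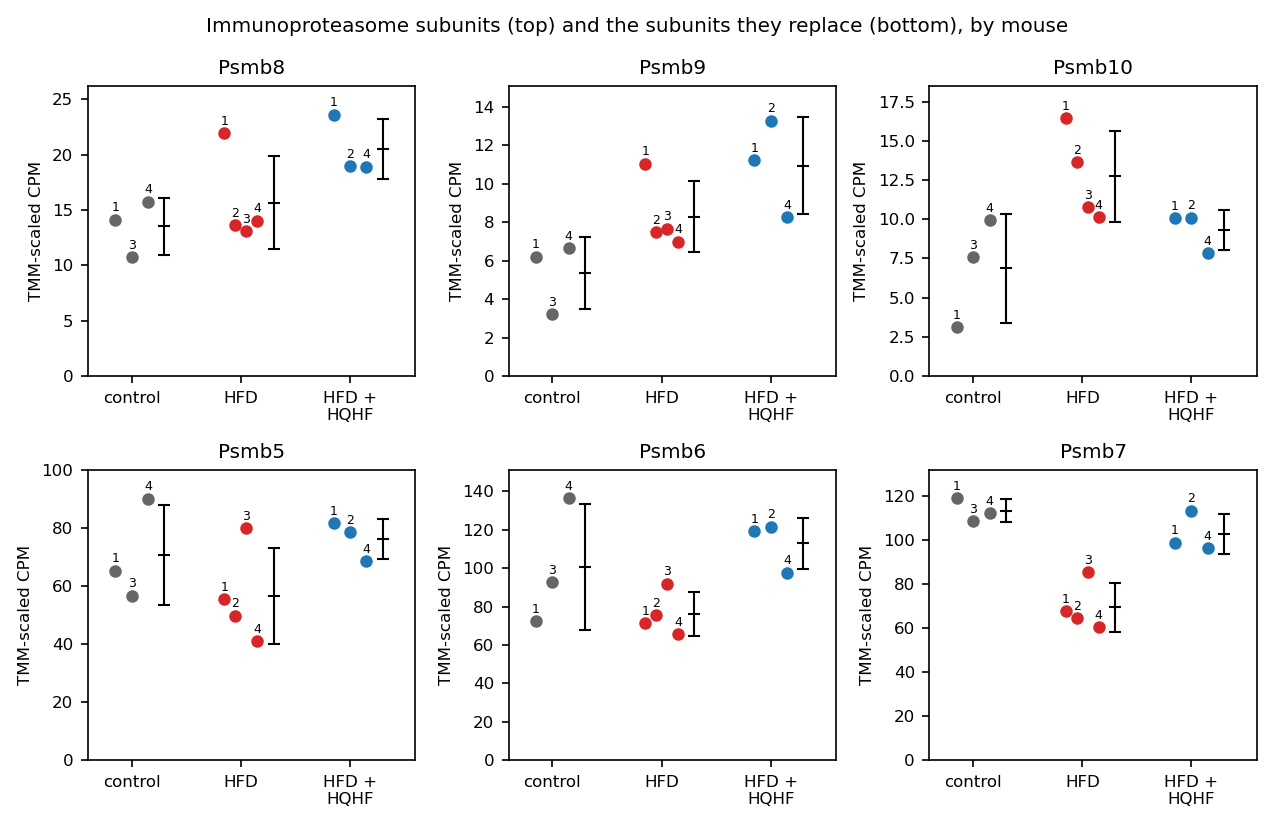
TMM-scaled CPM (y axis, from 0) of the immunoproteasome genes (top) and of the constitutive genes they replace (bottom) in each liver of the 3 groups, with replicate numbers at the points and mean ± SD (n = 3, 4 and 3) beside them. In HFD livers Psmb10 lies at 10.1 to 16.5 CPM against 3.10 to 9.93 CPM in control, and Psmb7 at 60.2 to 85.3 against 108.5 to 119 CPM; with library totals Psmb7 did not fall.

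Ratios of 2 genes in 1 library do not depend on scaling, so each immunoproteasome gene was also set against the subunit it replaces. Psmb10 had 2.61, 6.97 and 8.86 reads per 100 Psmb7 reads in control 1, 3 and 4, then 24.3, 21.2, 12.6 and 16.8 in HFD 1 to 4, and 10.2, 8.93 and 8.17 in HFD plus HQHF 1, 2 and 4. The HFD livers were all above the control livers and above the HFD plus HQHF livers. In HFD against control the mean log2 ratio was 1.74 higher (exact two-sided permutation p = 0.0286, the smallest this design allows, and 0.286 after Benjamini-Hochberg adjustment over 15 tests). With each library left out in turn this difference ranged from 1.21 to 2.09. In HFD plus HQHF against HFD the mean log2 ratio was 1.01 lower, from -2.46 ± 0.41 (SD, n = 4) to -3.46 ± 0.16 (SD, n = 3, exact permutation p = 0.0571, adjusted 0.286). Psmb9 had 8.55, 3.48 and 4.86 reads per 100 Psmb6 reads in control, 15.5, 9.88, 8.34 and 10.7 in HFD and 9.41, 10.9 and 8.46 in HFD plus HQHF livers (difference of log2 ratios in HFD against control 1.04, exact permutation p = 0.0571, adjusted 0.286). Psmb8 had 21.6, 18.9 and 17.5 reads per 100 Psmb5 reads in control, 39.6, 27.3, 16.4 and 34.2 in HFD and 28.9, 24.1 and 27.6 in HFD plus HQHF livers (0.53, exact permutation p = 0.2, adjusted 0.333). HFD 3 had the lowest of the 4 HFD values in all 3 ratios, and for Psmb8 it lay below every control. The 15 tests also took Psme1 and Psme2 against Psme3 (raw p from 0.171 to 0.771). None of the 15 passed the adjustment, and with 3 against 3 livers no exact p can be below 0.1. The control library left out, control 2, had 20.7, 16.0 and 87.1 reads per 100 for Psmb10, Psmb9 and Psmb8, each above the 3 control livers used.

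**Figure D4:**
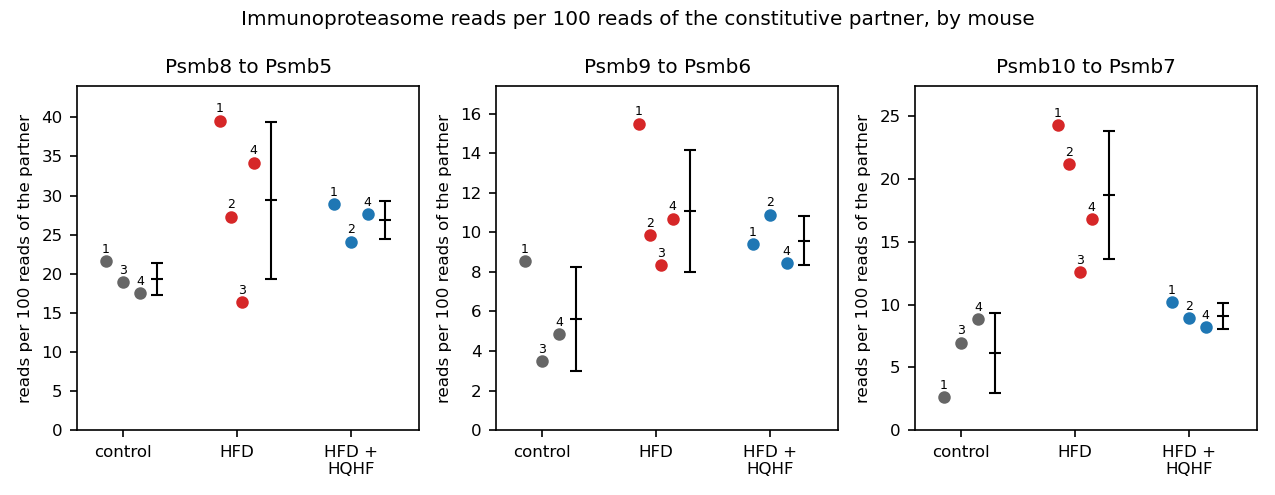
Reads of each immunoproteasome gene per 100 reads of the constitutive gene it replaces (y axis, from 0) in each liver, with replicate numbers at the points and mean ± SD (n = 3, 4 and 3) beside them. Psmb10 to Psmb7 is the 1 ratio in which the HFD livers (12.6 to 24.3) lie above both other groups (2.61 to 8.86 in control and 8.17 to 10.2 in HFD plus HQHF).

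Psmb8 and Psmb9 lie next to the peptide transporter genes in the major histocompatibility complex on chromosome 17. In the RefSeq annotation of GRCm38.p6 the starts of Psmb9 and Tap1 are 226 bases apart on opposite strands, so the window printed for Psmb9 takes in the start of Tap1 and runs past it. Tap1 had 13.1, 8.48 and 15.6 CPM in control, 28.8, 19.4, 13.5 and 17.1 CPM in HFD and 16.9, 15.5 and 23.9 CPM in HFD plus HQHF livers (HFD against control 0.67 ± 0.28, adjusted p = 0.103). Promoter windows of RefSeq (GRCm38.p6, 250 bases before to 50 after a gene's start) were found for 43 of the 51 genes and are shown for the 3 immunoproteasome genes, for Psmb5 and Psmb6, which 2 of them replace, and for Psmd12, a lid gene that fell with TMM scaling, so that genes with different calls can be read side by side. Each is written 5′ to 3′ along the gene's own strand. Capitals mark matches, on either strand, to CCAAT (the CCAAT box, bound by NF-Y), GGGCGG (the GC box, bound by SP1), TGACNNNGC (the core of the antioxidant response element, bound by NRF1 and NRF2), TTTC, any 2 bases and TTTC again (a loose interferon-stimulated response element) or TTCNNNGAA (a loose STAT element).
Psmb8, chr17:34197945-34198244, plus strand: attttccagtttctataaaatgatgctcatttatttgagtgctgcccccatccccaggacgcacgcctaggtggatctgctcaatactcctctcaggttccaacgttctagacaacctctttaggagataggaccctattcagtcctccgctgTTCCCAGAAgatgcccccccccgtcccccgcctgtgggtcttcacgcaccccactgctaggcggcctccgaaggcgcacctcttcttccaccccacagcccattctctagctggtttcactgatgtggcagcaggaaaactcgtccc
Psmb9, chr17:34187281-34187580, minus strand: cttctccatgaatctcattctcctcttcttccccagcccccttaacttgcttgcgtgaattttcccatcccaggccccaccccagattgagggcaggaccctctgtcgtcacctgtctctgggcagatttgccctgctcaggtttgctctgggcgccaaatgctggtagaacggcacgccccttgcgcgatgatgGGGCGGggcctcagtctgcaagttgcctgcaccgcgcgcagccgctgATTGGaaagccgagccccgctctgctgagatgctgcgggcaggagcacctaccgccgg
Psmb10, chr8:105938343-105938642, minus strand: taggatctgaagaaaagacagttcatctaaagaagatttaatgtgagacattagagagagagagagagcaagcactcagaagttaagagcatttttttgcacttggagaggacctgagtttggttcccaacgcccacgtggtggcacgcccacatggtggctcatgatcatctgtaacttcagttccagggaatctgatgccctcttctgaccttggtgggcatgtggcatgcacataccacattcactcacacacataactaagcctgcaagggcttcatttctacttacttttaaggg
Psmb5, chr14:54617946-54618245, minus strand: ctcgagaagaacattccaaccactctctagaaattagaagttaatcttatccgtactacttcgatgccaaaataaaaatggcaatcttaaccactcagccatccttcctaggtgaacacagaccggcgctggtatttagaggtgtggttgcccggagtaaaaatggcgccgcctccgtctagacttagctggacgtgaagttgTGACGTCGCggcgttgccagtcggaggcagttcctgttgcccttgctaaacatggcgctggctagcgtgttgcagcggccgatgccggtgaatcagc
Psmb6, chr11:70525107-70525406, plus strand: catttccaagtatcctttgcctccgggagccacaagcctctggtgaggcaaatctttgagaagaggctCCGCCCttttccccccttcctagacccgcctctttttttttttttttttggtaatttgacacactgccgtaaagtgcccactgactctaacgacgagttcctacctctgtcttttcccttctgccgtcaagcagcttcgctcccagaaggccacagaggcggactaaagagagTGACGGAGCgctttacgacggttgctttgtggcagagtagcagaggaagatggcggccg
Psmd12, chr11:107479278-107479577, plus strand: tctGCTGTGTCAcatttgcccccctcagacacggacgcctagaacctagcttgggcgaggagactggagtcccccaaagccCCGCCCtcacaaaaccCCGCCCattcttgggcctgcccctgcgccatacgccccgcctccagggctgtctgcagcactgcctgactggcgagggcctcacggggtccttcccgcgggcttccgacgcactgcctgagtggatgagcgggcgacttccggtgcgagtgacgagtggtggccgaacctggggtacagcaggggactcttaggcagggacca

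Psmb8 held a loose STAT pattern whose first base stood at -97 from its start, and Psmb9 a GC box at -55 and a CCAAT box at -8. Psmb5 and Psmb6 each held an antioxidant response core, at -47 and -9, and Psmd12 held one at -247 beside GC boxes at -169 and -153. None of these letters occurred in the Psmb10 window. Over the 47 windows of the 43 genes, GGGCGG was in 53.2% against 35.7% of all 32851 windows, CCAAT in 34.0% against 37.4%, TGACNNNGC in 12.8% against 12.4%, the loose interferon pattern in 10.6% against 3.4% and TTCNNNGAA in 6.4% against 8.3%. None of the patterns lies within another, although neighbouring matches can share letters. The 6 genes with the antioxidant response core were Psmb5, Psmb6, Psmc6, Psmd9, Psmd12 and Psme4, of which 2, Psmd12 and Psme4, fell in HFD livers with TMM scaling and 0 with library totals. The 5 genes with the loose interferon pattern were Psmb3, Psmd4, Psmd9, Psme1 and Psmg4, and no immunoproteasome gene was among them. Such matches are descriptions of these windows only, and a gene can have other starts.

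Of the 5 genes of activators that open the core without the cap 1 fell with TMM scaling and 0 with library totals, where 2 rose. Over all genes 9.89% were called lower with TMM scaling, and 1.11% lower and 50.9% higher with library totals. Psme1 and Psme2 form the activator PA28, which like the immunoproteasome is induced by interferon gamma. Psme1 had 59.8, 66.0 and 92.5 CPM in control and 76.7, 69.5, 64.7 and 72.8 CPM in HFD livers (-0.04 ± 0.17, adjusted p = 0.892), and with library totals it rose by 0.58. Psme2 had 57.6, 53.3 and 70.5 CPM in control and 58.5, 49.2, 49.8 and 47.8 CPM in HFD livers (-0.24 ± 0.15, adjusted p = 0.263). For both genes the groups overlapped. Psme3, the nuclear member of that family, did not pass (-0.41 ± 0.15, adjusted p = 0.0603), although every HFD liver, at 44.8 to 53.5 CPM, lay below every control liver, at 60.6 to 68.6 CPM. Psme4, the large single-chain activator PA200, fell with TMM scaling from 177, 172 and 141 CPM to 129, 116, 116 and 82.2 CPM (-0.56 ± 0.18, adjusted p = 0.0391), was at 0.03 with library totals, and lost the call when any of 6 of the 10 libraries was left out (control 1, control 3, HFD 2, HFD 4, HFD plus HQHF 1 or 2, adjusted p up to 0.121). Psme2b, a near copy of Psme2 with at most 0.997 CPM in any liver, may share reads with it, and its values are uncertain (1.24 ± 0.64, adjusted p = 0.168).

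Of the 7 assembly chaperones 1 fell with TMM scaling and 0 with library totals, beside 9.89% and 1.11% of all genes. This was Psmg1, which helps to build the alpha ring, with 16.6, 14.6 and 21.6 CPM in control and 11.3, 11.3, 13.6 and 10.97 CPM in HFD livers (-0.57 ± 0.16, adjusted p = 0.0242), lost without control 1, control 4, HFD 1 or HFD 4 (adjusted p up to 0.0844). Psmd5, which holds the base ATPases before the cap is complete, had 28.8, 28.4 and 27.1 CPM in control and 22.1, 24.6, 23.7 and 17.02 CPM in HFD livers, apart from each other but not past the test (-0.36 ± 0.15, adjusted p = 0.0881). The inhibitor Psmf1 had 23.2, 30.3 and 34.2 CPM in control and 24.8, 24.7, 21.3 and 32.0 CPM in HFD livers (-0.19 ± 0.20, adjusted p = 0.524). Psma8, the testis counterpart of Psma7, stayed at 0.288 to 0.997 CPM in all 10 livers (0.20 ± 0.44, adjusted p = 0.765). Neither Psme3ip1 (-0.18 ± 0.12, adjusted p = 0.251), at 13.9 to 18.4 CPM, nor Psmc3ip (0.58 ± 0.70, adjusted p = 0.563), at 0.0785 to 0.481 CPM, passed the test.

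In mice given HQHF on the high-fat diet, 14 of the 50 family genes were higher than in HFD mice with TMM scaling and 0 were lower, with a median of 0.45 on the log2 scale against -0.07 over all genes, whereas with library totals 0 were higher, 3 were lower (Psmb10, Psmd5 and Psmd8) and the median was -0.11 against -0.62. Over all genes 18.9% were called with TMM, 7.85% higher and 11.1% lower, and with library totals 48%, 0.99% higher and 47% lower. Of the called genes 41.5% were higher with TMM and 2.07% with library totals. With TMM 46 of 50 members lay above the median of all genes. The 14 genes were Psma5, Psma6, Psma7, Psmb1, Psmb2, Psmb3, Psmb7, Psmc1, Psmc3, Psmc5, Psmd4, Psmd6, Psmd12 and Psme2. Of these, 13 were among the 28 lower in HFD against control, and since both comparisons use the same 4 HFD livers this count is given without a test.

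This count, too, rested on single mice. It was 0 without HFD plus HQHF 1, 2 without HFD plus HQHF 2, 3 without HFD 4, 4 without HFD 1 and 4 without HFD 2, and 27 without HFD 3. With RLE scaling it was 22, with DESeq2 25 and with all 12 libraries 0, where 0.00718% of all genes were called. Of the 10 called genes that the naming rule picked, 0 passed with each of the 10 libraries left out in turn. Between groups 19 members had every HFD plus HQHF value above every HFD value and 1, Psmb10, had every one below, beside 13.5% and 17.2% of all genes.

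Psma5 had the largest log2 fold change, 0.85 ± 0.18 (adjusted p = 0.0136), with 76.5, 75.9 and 63.0 CPM in HFD plus HQHF 1, 2 and 4 against 33.6 to 51.8 CPM in HFD livers. The call was lost without HFD plus HQHF 1 or 2 (adjusted p up to 0.0593). Psmd6 had 57.1, 59.5 and 59.3 CPM, close together and all above the 30.8 to 46.1 CPM of HFD livers (0.71 ± 0.15, adjusted p = 0.0136), lost without HFD plus HQHF 1 (adjusted p = 0.0509). Psmd4 had 136, 115 and 154 CPM (0.75 ± 0.20, adjusted p = 0.0259), and with each of HFD 1, 2 and 4 and HFD plus HQHF 1 and 4 left out in turn it was not called (adjusted p up to 0.083). Psmb2 had 55.0, 57.3 and 48.5 CPM (0.51 ± 0.11, adjusted p = 0.0148), again lost without HFD plus HQHF 1 or 2 (adjusted p up to 0.0638). With library totals the values of Psma5, Psmd6, Psmd4 and Psmb2 were 0.28, 0.15, 0.17 and -0.04, and none was called.

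In the rings and cap 4 more genes picked by the naming rule were called, Psma6, Psmc1, Psmb3 and Psmd12. Psma6 had 120.7, 130.6 and 96.5 CPM, with HFD plus HQHF 4 just below HFD 3 (0.65 ± 0.18, adjusted p = 0.0348). Psmc1 had 102, 105 and 110.5 CPM (0.67 ± 0.20, adjusted p = 0.0384). Psmb3 had 79.2, 88.2 and 70.4 CPM (0.54 ± 0.15, adjusted p = 0.0323), and was at -0.01 with library totals. All 3 calls were lost without HFD 1, HFD 4 or HFD plus HQHF 1 or 2, those of Psma6 and Psmc1 also without HFD 2, and that of Psmc1 also without HFD plus HQHF 4 (adjusted p up to 0.121). Psmd12 had 66.5, 76.8 and 64.4 CPM (0.58 ± 0.18, adjusted p = 0.0453), and remained called only when HFD 3 was the library left out (adjusted p up to 0.146).

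By role, 7 of the 14 constitutive core genes and 6 of the 17 cap genes rose with TMM scaling and 0 of either with library totals, where Psmd8 fell. Of the catalytic subunits Psmb7 rose to 98.7, 113 and 96.1 CPM (0.57 ± 0.15, adjusted p = 0.0263), which was lost without HFD 1, 2 or 4 or HFD plus HQHF 1 or 2 (adjusted p up to 0.0969). Psmb5, at 81.7, 78.7 and 68.6 CPM (0.43 ± 0.23, adjusted p = 0.196), and Psmb6, at 119, 122 and 97.6 CPM (0.57 ± 0.21, adjusted p = 0.0774), did not pass. In the PA28 activator Psme2 rose to 80.8, 77.1 and 60.8 CPM (0.51 ± 0.15, adjusted p = 0.0406), was at -0.04 with library totals, and was lost when any of 6 libraries was left out (control 1, HFD 2, HFD 3, HFD 4, HFD plus HQHF 1 or 2, adjusted p up to 0.145). Its partner Psme1 did not pass, at 97.7, 80.0 and 76.2 CPM (0.25 ± 0.17, adjusted p = 0.304). None of the 7 chaperones was called with TMM scaling, beside 7.85% of all genes called higher and 11.1% lower.

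The immunoproteasome genes lay on both sides of 0 with TMM scaling and all below 0 with library totals, where Psmb8 was at -0.16 and Psmb9 at -0.13, neither called. Psmb8 had 23.6, 19.0 and 18.9 CPM in HFD plus HQHF livers (0.39 ± 0.21 against HFD, adjusted p = 0.204) and Psmb9 11.2, 13.3 and 8.26 CPM (0.40 ± 0.27, adjusted p = 0.31). Psmb10 had 10.1, 10.1 and 7.84 CPM, the 1 member with every value below the HFD livers (-0.45 ± 0.33, adjusted p = 0.35), and with library totals it fell by 0.98. None of these 3 genes was called with TMM, and whether Psmb10 differed from Psmb8 and Psmb9 was not tested.

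**Figure D5:**
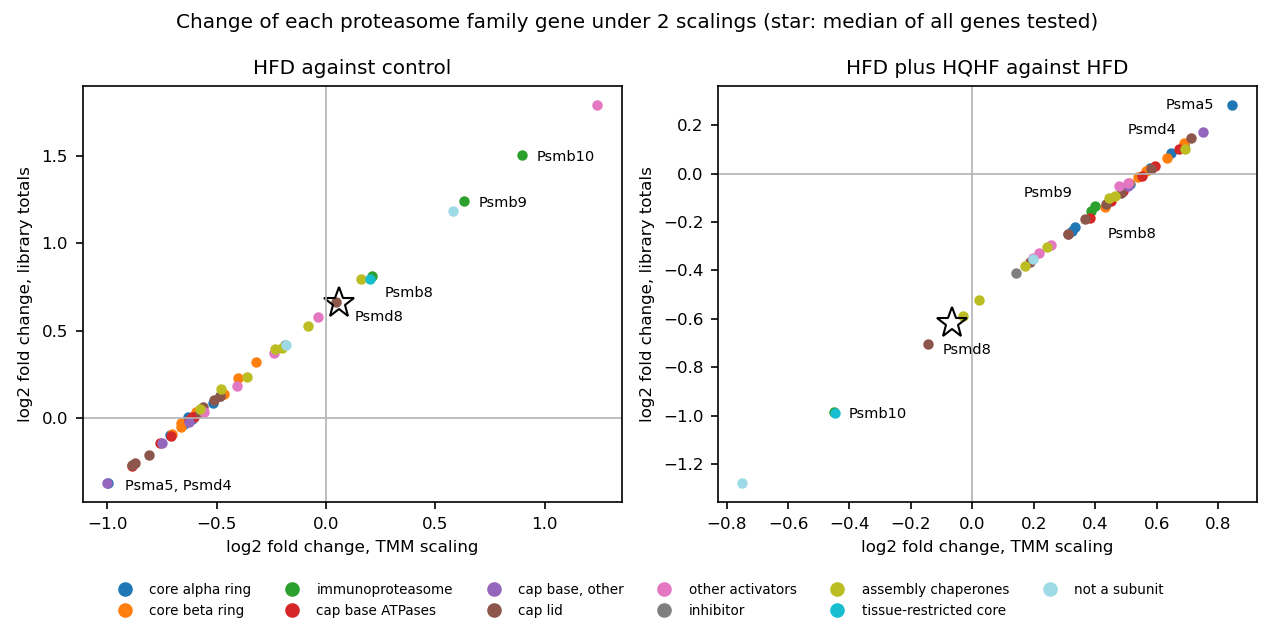
Log2 fold change of each tested family gene with TMM scaling (x axis) and with library totals (y axis) for 2 comparisons, coloured by role, with an open star at the median of all genes tested. In HFD against control the star moves from 0.06 to 0.66 and most core and cap genes lie below it on both axes, near -0.63 with TMM and near 0 with library totals.

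Set against control mice, the livers of HFD plus HQHF mice had no called gene. By edgeR 0 of 13832 genes, or 0%, and 0 of 50 family genes passed, and at an unadjusted p under 0.05 there were 1008 genes, or 7.29%, and 5 family genes, 3 of them higher. DESeq2 called 72 genes and 0 members. The family median was -0.11 against 0.02 over all genes. The 5 members were Psmb9 (1.03 ± 0.29), Psmb8 (0.60 ± 0.22) and the uncertain Psme2b (1.72 ± 0.67) among the higher and Psmd11 (-0.62 ± 0.21) and Psmd1 (-0.44 ± 0.17) among the lower, with adjusted p from 0.588 to 0.643. For Psmb8 and Psmb9 all 3 HFD plus HQHF livers lay above all 3 control livers, at 18.9 to 23.6 CPM against 10.7 to 15.8 CPM and at 8.26 to 13.3 CPM against 3.23 to 6.63 CPM. Over the family 3 members had all values above and 8 all values below the controls, beside 8.40% and 6.72% of all genes. A p that misses the threshold does not show that these groups were alike.

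Genes that work with the proteasome outside the family were read from 4 lists. Of 10 tested partners and assembly factors 5 fell in HFD against control with TMM scaling (Pomp, Adrm1, Usp14, Ecpas and Txnl1) and 0 with library totals, and their median was -0.44. The shares of all genes called lower were 9.89% and 1.11%. Usp14, a deubiquitinase of the cap, went from 40.3, 31.0 and 31.0 CPM to 23.0, 19.8, 26.1 and 20.6 CPM (-0.61 ± 0.15, adjusted p = 0.016), and was lost without control 1 (adjusted p = 0.068). Ecpas, a proteasome adaptor and scaffold, fell by 0.50 ± 0.14 (adjusted p = 0.0239, lost without control 1, HFD 1 or HFD 4, up to 0.0887). Pomp, the chaperone that completes the core, had 76.5, 56.7 and 57.2 CPM in control, 41.6, 39.7, 56.5 and 34.7 CPM in HFD and 76.5, 70.4 and 58.6 CPM in HFD plus HQHF livers. It fell by 0.56 ± 0.19 with the diet (adjusted p = 0.0491) and rose by 0.67 ± 0.19 with HQHF (adjusted p = 0.0338), and these calls were lost in 8 and 5 of the 10 fits that leave out 1 library (adjusted p up to 0.184 and 0.12). With HQHF 2 of the 10 partners, Pomp and Sem1, rose with TMM scaling, and with library totals 0 rose and Akirin2 fell. Beside this, 7.85% of all genes were called higher with TMM scaling and 47% lower with library totals.

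When proteasome activity is short, the membrane-bound factor NRF1, from the gene Nfe2l1, is pulled from the endoplasmic reticulum by Vcp, stripped of sugars by Ngly1 and cut by Ddi2, and then drives proteasome genes. Of 8 genes in the list for this control 3 fell in HFD against control with TMM scaling, namely Ddi2, Ngly1 and Vcp, and with library totals 0 fell and 4 rose. These counts stand beside 9.89% of all genes called lower with TMM scaling and 50.9% called higher with library totals. Ngly1 had 39.9, 37.7 and 33.2 CPM in control, 24.3, 23.7, 26.9 and 18.4 CPM in HFD and 33.7, 37.2 and 33.6 CPM in HFD plus HQHF livers. The HFD livers were below all others, with -0.66 ± 0.14 against control (adjusted p = 0.0103, called with any 1 library left out) and 0.58 ± 0.14 for HQHF against HFD (adjusted p = 0.022, lost without HFD plus HQHF 1 or 2, up to 0.0814). In HFD plus HQHF against HFD 1 of the 8, Ngly1, rose with TMM scaling, and with library totals 0 rose and 4 fell. Beside this, 7.85% of all genes were called higher with TMM scaling and 47% lower with library totals. Vcp, in HFD against control at -0.61 ± 0.20 (adjusted p = 0.0411), was lost in 8 of 10 such fits (up to 0.11). Nfe2l1 itself had 162, 169 and 162 CPM in control, 123, 114, 156 and 131 CPM in HFD and 161, 160 and 210.5 CPM in HFD plus HQHF livers. Its HFD values were all below those of both other groups, but neither difference passed (-0.33 ± 0.16, adjusted p = 0.143, and 0.44 ± 0.16, adjusted p = 0.0737).

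Of 13 ubiquitin genes, activating enzymes and shuttle factors 6 fell in HFD against control with TMM scaling, among them Rad23b, Ubqln1, Nploc4 and Ufd1, and with library totals 0 fell and 1 rose. These counts stand beside 9.89% of all genes called lower with TMM scaling and 50.9% called higher with library totals. Rad23b, which carries tagged proteins to the cap, had 235, 206.5 and 231 CPM in control and 160, 154, 146 and 133 CPM in HFD livers (-0.60 ± 0.14, adjusted p = 0.0133). Its groups did not overlap, and the call was lost without control 1 (adjusted p = 0.0511). In HFD plus HQHF against HFD none of the 13 was called with TMM. With library totals 4 fell (Uba1, Uba6, Ubqln2 and Ubqln4), beside 47% of all genes called lower.

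The last list held genes that load peptides on class I molecules, with their inducers. Of 14 genes 3 rose in HFD against control with TMM scaling (Tapbpl, Irf8 and Ifngr1), 10 rose with library totals, and 0 fell under either, beside 16.3% and 50.9% of all genes called higher. With TMM scaling B2m (-0.48), H2-K1 (-0.35), Erap1 (-0.33) and Nlrc5 (-0.19) had log2 fold changes below 0, none of them called. Those of all other genes in the list were above 0, with a median of 0.49 over the 14. In HFD plus HQHF against HFD 1 of the 14 fell with TMM scaling and 9 with library totals, beside 11.1% and 47% of all genes called lower. Irf8, a transcription factor of myeloid cells, had 5.02, 5.07 and 6.16 CPM in control, 23.0, 10.2, 11.2 and 19.0 CPM in HFD and 9.02, 7.80 and 6.12 CPM in HFD plus HQHF livers. It rose by 1.55 ± 0.29 with the diet (adjusted p = 0.00631, called with any 1 library left out) and fell by 1.05 ± 0.28 with HQHF (adjusted p = 0.0293, lost in 5 of 10 such fits, up to 0.0921). Tapbpl, a peptide editor, rose by 0.67 ± 0.17 with the diet (adjusted p = 0.0197, lost without control 1 or control 3, up to 0.104). Irf1, an interferon-induced activator of Psmb9 and Tap1, had 22.2, 16.5 and 19.1 CPM in control, 55.5, 23.6, 22.9 and 26.0 CPM in HFD and 30.6, 39.0 and 31.1 CPM in HFD plus HQHF livers, with HFD 1 far above the others (HFD against control 0.73 ± 0.30, adjusted p = 0.092). HFD 1 was also the highest HFD liver for Psmb8, Psmb9, Psmb10, Tap1 and Irf8.

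Markers of other cell types were read beside the immunoproteasome and peptide loading values, with each range of summed shares given for control, HFD and HFD plus HQHF livers in that order. Their counts stand beside 16.3% of all genes called higher and 9.89% lower in HFD against control with TMM scaling. With library totals these shares were 50.9% and 1.11%. In HFD plus HQHF against HFD 11.1% of all genes were called lower with TMM scaling and 47% with library totals. Of 10 monocyte and recruited macrophage markers 8 rose in HFD against control with TMM scaling and 10 with library totals, and 7 and 9 fell in HFD plus HQHF against HFD. Their share of counts was 0.00381 to 0.00663%, 0.0198 to 0.0780% and 0.00480 to 0.00669%, and all 10 had reads in all 10 livers. In HFD plus HQHF against HFD, where these markers fell, Psmb8 and Psmb9 had log2 fold changes above 0 with TMM and below 0 with library totals, neither called. Psmb10 was below 0 under both scalings, at -0.45 with TMM (not called) and -0.98 with library totals (called lower).

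Of 6 stellate cell markers 5 rose with the diet with TMM scaling (Lrat, Des, Pdgfrb, Dcn and Col1a1) and 6 with library totals, and 4 and 5 fell with HQHF. Their share was 0.0238 to 0.0333%, 0.0496 to 0.112% and 0.0279 to 0.0341%. Of 6 dendritic cell markers 3 rose with the diet with TMM scaling and 5 with library totals (0.000688 to 0.000942%, 0.00143 to 0.00201% and 0.000957 to 0.00122%). Of 8 T and NK cell markers 2 rose with TMM scaling and 5 with library totals, beside 16.3% and 50.9% of all genes (0.000247 to 0.000418%, 0.000569 to 0.00211% and 0.000379 to 0.000494%). The diet thus went with higher marker sums for all 4 of these lists, without overlap between HFD and control livers. The sums are shares of library totals, with which 50.9% of all genes were called higher. This was not particular to the 4 lists. A sum of 6 endothelial cell markers also lay apart, at 0.0289 to 0.0356% in control and 0.0406 to 0.0485% in HFD livers. Of these markers 0 were called with TMM scaling and 2 rose with library totals. The neutrophil and the B and plasma cell sums below lay apart as well.

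All 3 tested of 6 neutrophil markers rose with the diet under both scalings (0.000218 to 0.000256%, 0.000721 to 0.00187% and 0.000297 to 0.000468%), with Ly6g at 0 reads in 8 of the 10 livers. Of 6 B and plasma cell markers 0 were called with TMM scaling and 2 rose with library totals, beside 50.9% of all genes (0.000312 to 0.000404%, 0.000489 to 0.00134% and 0.000367 to 0.000787%). Of 6 Kupffer cell markers 3 fell with TMM scaling, while with library totals 0 fell and Cd5l rose (0.0192 to 0.0284%, 0.0231 to 0.0371% and 0.0228 to 0.0356%). With HQHF Clec4f, Timd4 and Folr2 rose with TMM scaling and Clec4f with library totals, beside 7.85% and 0.99% of all genes. With TMM scaling HQHF went with no call among the T and NK, neutrophil, B and plasma or endothelial cell markers. With library totals 5, 3, 1 and 2 of them fell, beside 47% of all genes. Of the dendritic cell markers 3 fell under each scaling. HFD 1 had the highest sums of the HFD livers for T and NK cells (0.00211%), neutrophils (0.00187%) and Kupffer cells (0.0371%), and HFD 4 for monocytes and macrophages (0.0780%), dendritic cells (0.00201%) and stellate cells (0.112%). In HFD 4 the monocyte and macrophage sum leaned on Spp1, with 17553 reads there against 1873, 1566 and 816 in HFD 1 to 3. Spp1 was not called in HFD against control with TMM scaling. The part of these cell types in the immunoproteasome and peptide loading values was not tested.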

How the data were processed

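Long RNA libraries of 12 mouse livers (3 groups of 4) were analysed from the authors' deposited table of raw counts per gene, which per the submitters' processing notes was made with HISAT2, RSEM and GRCm39. The sources used here name no version of these tools, and the small RNA table was not used here. A batch term was not possible, since each mouse has a batch code of its own. The family, its classes and the other gene lists were chosen with earlier results of these data known.

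One model was fitted to 10 libraries of 36198931 to 46454404 counts with edgeR 4.0.16 in R 4.3.3 (filterByExpr, TMM, robust quasi-likelihood test, Benjamini-Hochberg adjustment over 13832 genes, threshold 0.05), after a test on simulated data. The SE is the absolute log2 fold change divided by the square root of F. Read ratios were compared by exact two-sided permutation tests. Promoter windows come from RefSeq tables of GRCm38.p6, with no conversion between builds.

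Full values were given for Psmb5 to Psmb10, Psme1, Psme2, the 2 genes with the smallest diet p in each other class and pathway list, and Nfe2l1, Pomp, Tap1 and Irf1. The values of 1 gene that this rule picked are not reported here. Other members with values were chosen after their values were seen, among them Psma1, Psmc6, Psmd3, Psmd8, Psmd11 and Psme2b. Alternatives were all 12 libraries, RLE, library totals, DESeq2 1.42.0, no filter, a floor of 1 CPM in 3 or more libraries, a fit of only the 2 groups compared, a replicate block, and each library left out in turn. The edgeR p-values set each difference against a spread between mice that was estimated over all 3 groups. The permutation p-values set it against all regroupings of the mice compared. Reads of near copies, such as Psme2 and Psme2b or pseudogenes of family members, could be split between them, and these counts are uncertain.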

Additional observations from a re-analysis of the deposited data

Results flagged for a closer look

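Of 55 tested values 7 had 1 HFD liver standing apart from the other 3, where the gap to the nearest liver divided by the range exceeded Dixon's critical value (chance flags about 1 in 20). In HFD 3, Psmd4 had 108 CPM against 67.3 to 73.6 in the other HFD livers, Psmb4 84.6 against 49.3 to 54.2, Psmc6 41.2 against 23.3 to 26.2, Psma7 86.8 against 50.8 to 55.3 and Psmg1 13.6 against 11 to 11.3. All 5 were high there. In HFD 1, Psmb8 had 22.0 CPM against 13.1 to 14.0 and Psmb9 11 against 6.98 to 7.66.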

How the results depend on the processing

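With all 12 libraries 7 genes were called in HFD against control and 1 in HFD plus HQHF against HFD, with 0 family genes in either. With library totals these became 7195 genes (6 members higher, 0 lower) and 6633 genes (0 members higher, 3 lower). Among genes picked by the naming rule and called under at least 1 of the 2 scalings, the log2 fold changes that turned with library totals were, in HFD against control, Psme1 (0.58), Psmb2 (0.14), Psme4 (0.0316), Psmg1 (0.0478), Ecpas (0.11), Rad23b (0.000862) and Pomp (0.0535), and, in HFD plus HQHF against HFD, Psme2 (-0.0383), Psmb3 (-0.0148), Psmb2 (-0.0392), Psmd5 (-0.52) and Vcp (-0.54). Genes called under neither scaling turned as well, among them Psmb5 and Psmb6 in HFD against control and Psmb8 and Psmb9 in HFD plus HQHF against HFD. DESeq2 called 1 member higher in HFD against control (Psmb10), 25 higher in HFD plus HQHF against HFD, where RLE scaling gave 22, and 72 genes in HFD plus HQHF against control, where the fit of only the 2 groups gave 1. With the replicate block 18 members were lower in HFD against control, and 6 members were higher among 1719 genes called in HFD plus HQHF against HFD. Same-numbered mice showed little shared deviation (correlations -0.0542 to 0.119). With 3 or 4 mice per group these values cannot decide whether the numbers pair the mice. Leaving out each library gave 10 to 31 members lower, 0 to 1 higher and 1568 to 3882 genes in HFD against control (1568 without control 1, 1757 without control 3, 2078 without control 4), and 0 to 27 members higher and 633 to 3301 genes in HFD plus HQHF against HFD (633 without HFD plus HQHF 1, 803 without HFD plus HQHF 2). With all 12 libraries the log2 read ratio of Psmb8 to Psmb5 turned to -0.01002 in HFD and -0.14 in HFD plus HQHF against control, Psme1 to Psme3 to -0.0037 in HFD plus HQHF against HFD and Psme2 to Psme3 to -0.22 in HFD against control. Leaving out each library gave -0.31 to 0.11 for Psmb8 to Psmb5 and -0.19 to 0.26 for Psme1 to Psme3 in HFD plus HQHF against HFD. The causes were not tested. Between 3 and 4 mice no exact p can be below 0.0286, and adjustment over 15 tests leaves little room at this sample size.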
